A study of Mus musculus with 23 samples.

Results

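Glycolysis and the hypoxia response were followed here through 34 genes: the glucose transporters, the enzymes from hexokinase to lactate dehydrogenase, and the sensors and targets of the hypoxia-inducible factors (HIFs). They were chosen by symbol, and all 34 were found among the 55573 gene identifiers of the count files. RNA was measured by QuantSeq, which sequences the 3′ ends of polyadenylated transcripts, in mouse embryonic stem cells (ESCs) with and without SET, an acidic protein that chaperones histones and restrains the phosphatase PP2A. The title of the series asks how SET, with p53 and β-catenin, bears on ESC differentiation. R1 ESCs were compared as SET-/- (KO, lines KO1 and KO2) and wild type (WT) in 2 separately titled sets. Set 1 held 4 KO samples (1c, 1d, 1e and 1f) and 2 WT samples (1a and 1b), and set 2 held 4 KO samples (2c, 2d, 2e and 2f) and 2 WT samples (2a and 2b). With retinoic acid (RA) for 4 d, a standard trigger of ESC differentiation, set 2 held 2 KO samples (2h and 2i, both titled KO1) and 1 WT sample (2g). The deposited file of 2i carries the line code of the untreated KO2 files of this set, so which KO line 2i comes from is uncertain, and RA-treated KO was set against untreated KO1 and KO2 together. The file codes of KO1 and of KO2 also differ between the sets. KH2 ESCs with the SETa-HA transgene under doxycycline control were sampled with Dox (1 μg/mL for 24 h) and without it, 2 samples each. R1 and KH2 ESCs were grown on mouse embryonic fibroblast feeders with serum and LIF; the medium during RA, and whether KO1 and KO2 are the same clones in both sets, are not given in the sources used here. Since the labels name no separate cultures, p-values reflect the spread among the samples at hand, and that spread may be technical.

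Glycolysis splits glucose to pyruvate, which is reduced to lactate by lactate dehydrogenase or enters the mitochondrion unless pyruvate dehydrogenase kinases close that route. Cells with oxygen hydroxylate the HIF alpha subunits through the prolyl hydroxylases Egln1 and Egln3, which marks the subunits for degradation; without oxygen they pair with ARNT and switch on glucose transporters, glycolytic enzymes and their own hydroxylases. Mouse ESCs are known for strong glycolysis, which declines in many differentiated descendants.

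HIFs bind the cores ACGTG and GCGTG, and 5 promoters are printed to show how these letters lie in genes that moved with SET or RA below. RefSeq windows of GRCm38.p6, from 250 bases before to 50 bases after the transcription start, were matched for 31 of the 34 genes (44 windows); Epas1, Slc2a3 and Ndrg1 were not matched. Capitals mark ACGTG or GCGTG on either strand, so that a palindromic CACGTG counts once on each strand.
The windows lie at chr13:6648722-6649021 for Pfkp and chr12:54203825-54204124 for Egln3 (both minus strand), and at chr11:120948817-120949116 for Slc16a3, chr11:54100674-54100973 for P4ha2 and chr7:46845554-46845853 for Ldha (all plus strand).
Pfkp: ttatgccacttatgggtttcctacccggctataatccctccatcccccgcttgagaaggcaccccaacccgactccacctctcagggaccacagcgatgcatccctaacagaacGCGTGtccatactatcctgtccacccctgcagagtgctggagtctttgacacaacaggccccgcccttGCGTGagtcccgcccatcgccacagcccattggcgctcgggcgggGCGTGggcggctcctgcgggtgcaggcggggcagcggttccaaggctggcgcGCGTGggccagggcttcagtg
Egln3: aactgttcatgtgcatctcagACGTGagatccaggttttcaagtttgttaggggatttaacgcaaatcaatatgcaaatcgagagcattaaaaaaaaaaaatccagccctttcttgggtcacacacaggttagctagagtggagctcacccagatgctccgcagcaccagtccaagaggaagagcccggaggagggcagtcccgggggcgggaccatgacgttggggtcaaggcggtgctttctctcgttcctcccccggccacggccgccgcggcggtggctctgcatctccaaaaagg
Slc16a3: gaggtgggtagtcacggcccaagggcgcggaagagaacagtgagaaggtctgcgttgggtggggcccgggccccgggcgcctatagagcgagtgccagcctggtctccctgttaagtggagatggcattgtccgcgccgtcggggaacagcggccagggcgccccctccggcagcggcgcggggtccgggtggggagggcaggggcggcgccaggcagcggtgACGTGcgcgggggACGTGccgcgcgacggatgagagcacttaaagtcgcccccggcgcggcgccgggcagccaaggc
P4ha2: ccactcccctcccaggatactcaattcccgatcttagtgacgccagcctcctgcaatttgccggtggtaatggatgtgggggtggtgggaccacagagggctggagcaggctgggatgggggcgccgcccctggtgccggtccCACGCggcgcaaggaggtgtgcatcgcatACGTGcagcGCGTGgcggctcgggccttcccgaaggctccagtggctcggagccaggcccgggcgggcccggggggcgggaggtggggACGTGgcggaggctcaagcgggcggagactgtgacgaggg
Ldha: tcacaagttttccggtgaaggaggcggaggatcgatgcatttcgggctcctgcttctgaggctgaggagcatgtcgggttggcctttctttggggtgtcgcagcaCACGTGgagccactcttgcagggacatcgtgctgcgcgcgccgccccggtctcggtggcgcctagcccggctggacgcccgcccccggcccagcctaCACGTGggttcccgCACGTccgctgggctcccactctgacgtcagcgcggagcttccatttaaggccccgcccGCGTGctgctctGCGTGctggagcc
At least 1 core stood in 79.5% of the 44 windows, against 43.8% of all 32851 windows of this length, and ACGTG itself in 54.5% against 19.6%. Ldha held 7 matches in its window, Pfkp and P4ha2 4 each, Slc16a3 2 and Egln3 1. A match is a description of sequence only, and no match would say only that these letters are not in the window.

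The 19 samples held 806412 to 1445013 assigned counts in set 1, 2833064 to 10217040 in untreated set 2, 3904924 to 5047363 after RA and 4848478 to 6472695 in KH2 cells. A floor of 3 counts was worth 0.294 to 3.72 CPM (counts scaled to library size, here with TMM factors throughout). Set itself stood at 17.3 to 25.9 CPM in KO and 977 to 1019.9 in WT in set 1, at 272 to 562 in KO and 1191 to 1401 in WT in set 2, and after RA at 185 to 271 in KO and 559 in WT. Set transcript was thus still counted in set 2 KO samples. In KH2 cells it stood at 1119 to 1263 with and 955 to 1016 without Dox. None of the 12 ESC markers was at 0 in all samples of an untreated group, and their summed levels were 2398 to 2630.0 CPM in KO and 4185 to 4757 in WT in set 1, 2186 to 2579.6 in KO and 3286 to 3507 in WT in set 2, and 454 to 456 in KO and 362 in WT after RA. Pou5f1 was low in untreated set 2, at 0.738 CPM in 2c, 3.68 to 4.63 in the other KO samples, and 5.17 and 9.17 in WT. The 26 feeder fibroblast markers summed to 360.5 to 542 CPM in KO and 57.7 to 89.4 in WT in set 1, where Lum was at 0 in both genotypes and Col6a2, Postn, Dcn, Thbs2 and Fap only in WT. Their sums were 492 to 755 in KO and 355 to 415 in WT in set 2, and 5479 to 6328 in KO and 5765 in WT after RA, most of it from 1 gene, Acta2. In bulk samples, fewer cells of a type and less RNA per cell cannot be told apart.

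Several glycolytic genes have many processed copies in the mouse genome, and reads that map to several places or overlap several genes were not counted with these options. Of the 50-base windows of the Gapdh transcript, 82.5% also occur in transcripts of other annotated genes (222 genes), and the shares were 72.2% for Eno1, 68.0% for Pgk1, 62.5% for Bnip3 and 41.5% for Pgam1. Over the last 300 bases, nearest the 3′ end that QuantSeq reads, the shares were 82.9% for Gapdh, 90.0% for Eno1, 55.4% for Bnip3 and 0 for Pgk1 and Pgam1. Gapdh stood at 109.5 to 397 CPM in set 1 and at 0.524 to 5.75 CPM in all other samples, and the part of the copies in this was not tested. Values of Gapdh, Eno1 and Bnip3 are uncertain, and those of Pgk1 and Pgam1 are uncertain as far as reads lie upstream of these bases. Pfkp shares 748 exon bases of its last exon with Pitrm1 on the opposite strand, so its counts come from reads outside that stretch. The window search read both strands, so it met this overlap again: 699 windows of Pfkp occur in transcripts of 1 other gene. All windows of its last 300 bases (100%) are among them, and they do not show a separate copy of Pfkp. With reads over this 3′ stretch not counted, values of Pfkp are uncertain too. Pitrm1 itself held 22 to 139 counts per sample.

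In untreated ESCs, a minority of the 34 genes differed between KO and WT, in both directions. Pfkp, Epas1 and Ldhb fell and P4ha1 and P4ha2 rose in each set tested alone, and Egln3 and Aldoc fell in set 1. The glucose transporters Slc2a1 and Slc2a3, the hexokinase Hk2, the aldolase Aldoa, the pyruvate kinase Pkm, the main lactate dehydrogenase Ldha, Hif1a and Vegfa passed the test in neither set. Over both sets, 33 of the genes were tested with edgeR's quasi-likelihood test, and 4 rose and 6 fell at an adjusted p of 0.05. Of all 11515 genes tested, 19.1% were called, 10.4% higher and 8.63% lower. Medians of the log2 fold change, KO over WT, were -0.09 for these genes and -0.02 for all genes. In set 1, 3 rose and 6 fell of 32 tested (12.3% of all genes were called, 7.19% higher and 5.1% lower), and in set 2, 3 rose and 3 fell of 33 tested (9.19% of all genes, 5.64% higher and 3.55% lower). Markers of ESCs moved with genotype too: 8 of 12 fell in KO over both sets and none rose, and their part in the values below was not tested.

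**Figure D1:**
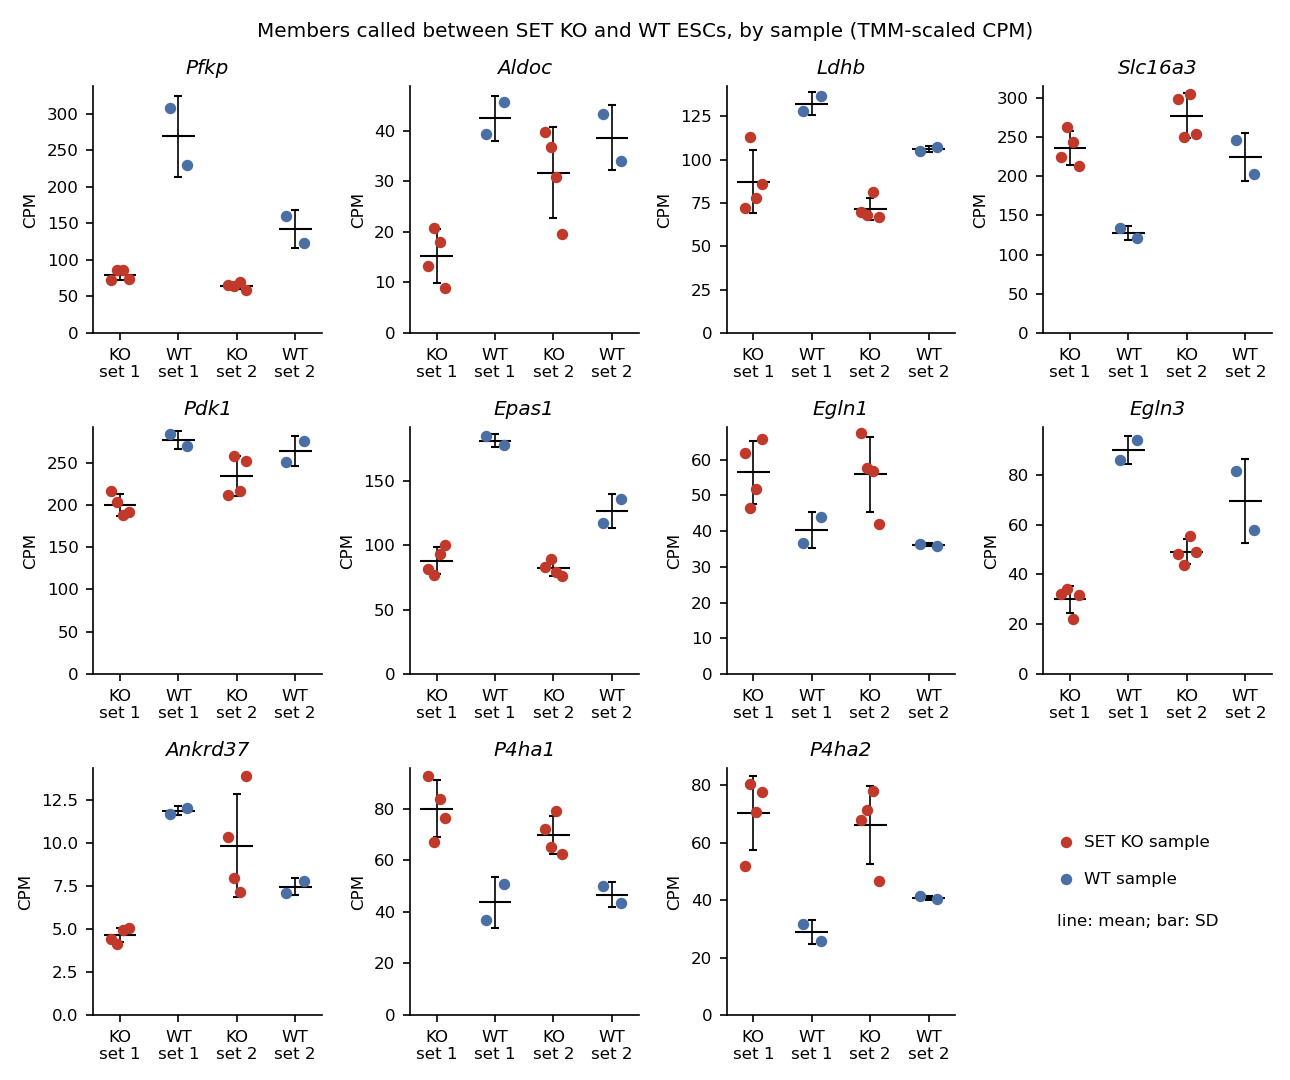
Each point is 1 sample; the vertical axes give CPM scaled by TMM, red points are SET KO and blue points WT samples of sets 1 and 2, lines are means and bars SD. The 11 genes are those called in at least 1 of the 3 KO comparisons; the Pfkp and Epas1 points of KO lie below all WT points of the same set, and those of P4ha1 and P4ha2 above them.

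**Figure D2:**
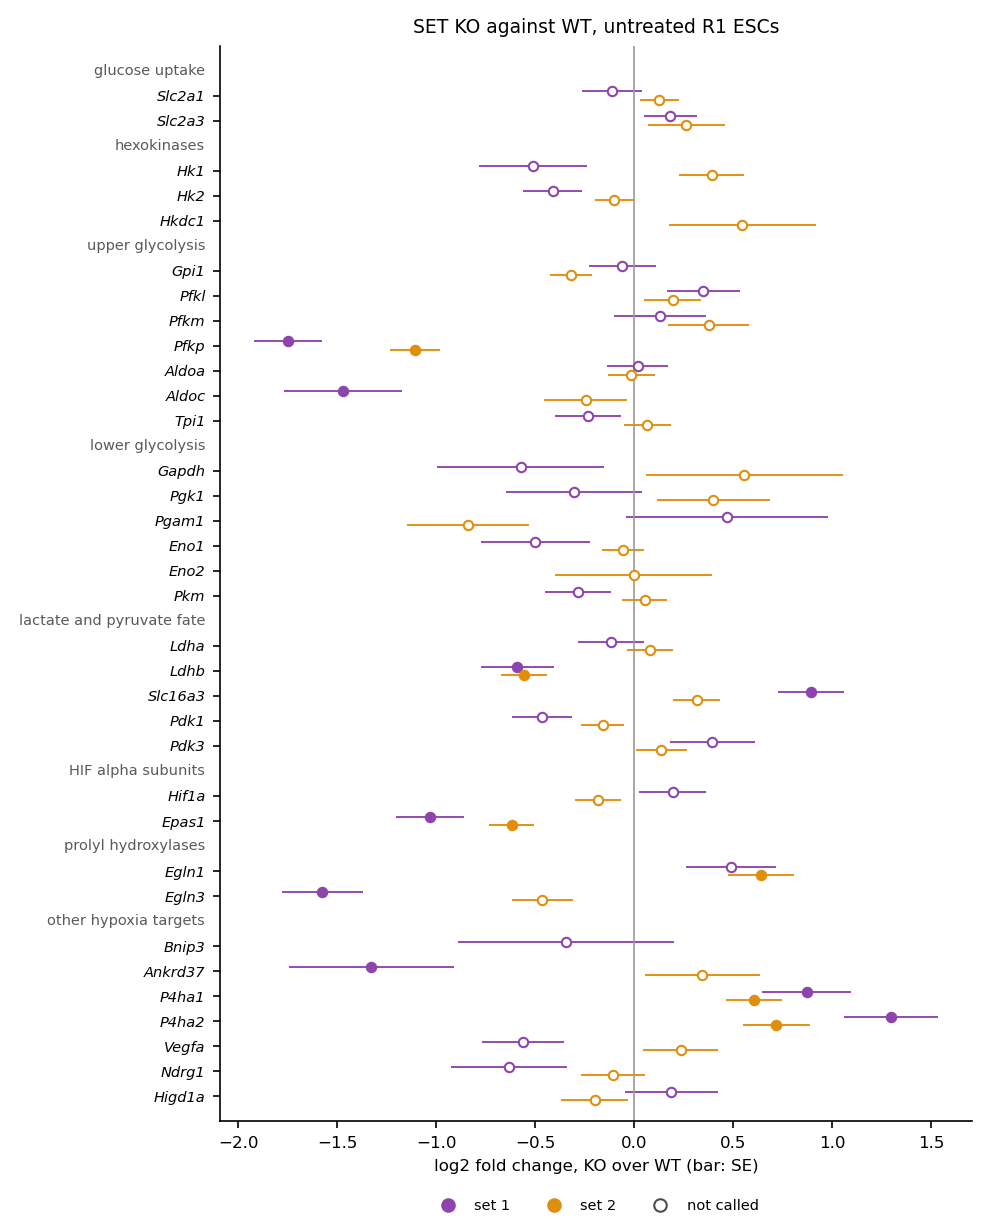
Log2 fold changes of SET KO over WT with SE for the 34 genes grouped by role, in set 1 (purple) and set 2 (orange); filled points passed an edgeR adjusted p of 0.05 and genes without a point were not tested. Pfkp and Epas1 stand to the left in both sets and P4ha1 and P4ha2 to the right, while most glycolytic enzymes lie within 0.5 of zero.

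Of the 7 genes of upper glycolysis, from glucose 6-phosphate to the triose phosphates, Pfkp and Aldoc fell over both sets and the other 5 did not pass. Pfkp (ENSMUSG00000021196, chromosome 13, 6579768 to 6648777, minus strand) encodes the platelet isoform of phosphofructokinase, the committing step of glycolysis. It stood at 73.0, 86.6, 85.6 and 73.9 CPM in set 1 KO samples and at 308 and 230.0 in WT. In set 2 it stood at 65.3, 65.0, 69.6 and 59.2 CPM in KO and 161 and 124 in WT. The genotypes did not overlap in either set, and KO over WT on the log2 scale came to -1.43 over both sets (SE 0.12, edgeR adjusted p = 3.18e-08), -1.75 in set 1 and -1.11 in set 2. The liver and muscle isoforms Pfkl and Pfkm had log2 values of 0.24 and 0.26 and did not pass (edgeR adjusted p = 0.164 and 0.266). Aldoc (ENSMUSG00000017390, chromosome 11, 78322968 to 78327781, plus strand), the brain-type aldolase, stood at 13.3, 20.8, 18.1 and 8.84 CPM in set 1 KO and 39.3 and 45.7 in WT, with no overlap. Its levels in set 2 were 39.8, 36.7, 30.9 and 19.5 CPM in KO and 43.3 and 34.1 in WT, which overlapped. Its log2 fold change was -1.47 in set 1 (SE 0.30, edgeR adjusted p = 0.00339) and -0.24 in set 2 (adjusted p = 0.527). The pooled call of Aldoc (-0.71, edgeR adjusted p = 0.0424) was lost without any 1 of 1a, 1b, 1c, 1d, 1e, 2a, 2e or 2f (edgeR adjusted p = 0.0593 to 0.125). Aldoa, the aldolase isoform of most tissues, had a log2 value of -0.01 (SE 0.11), and Gpi1 and Tpi1 had -0.21 and -0.09. The hexokinases Hk1, Hk2 and Hkdc1 had 0.05, -0.27 and 0.56, and by edgeR 0 of the 6 genes of lower glycolysis were called in any comparison of untreated KO and WT cells, and over both sets 0 of the 5 tested had an unadjusted p under 0.05 (log2 -0.42 for Pgam1 to 0.12 for Pgk1 over both sets, with Eno2 not tested).

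At the fork between lactate and the mitochondrion, Ldhb and Pdk1 fell and the lactate exporter Slc16a3 rose over both sets. Ldhb (ENSMUSG00000030246, chromosome 6, 142490249 to 142507957, minus strand), the heart-type lactate dehydrogenase subunit, stood at 71.9, 113, 78.1 and 85.9 CPM in set 1 KO samples and 128 and 137 in WT. Set 2 gave 69.7, 67.9, 81.2 and 67.1 CPM in KO and 105 and 107 in WT. The genotypes did not overlap in either set, and the pooled log2 fold change was -0.58 (SE 0.11, edgeR adjusted p = 0.000421), while Ldha had -0.03 (SE 0.11, adjusted p = 0.878). Within a single set, the Ldhb call was lost in set 1 without 1a, 1b, 1c, 1e or 1f (edgeR adjusted p = 0.0790 to 0.204) and in set 2 without 2b (0.109). Slc16a3 (ENSMUSG00000025161, chromosome 11, 120948480 to 120960868, plus strand), which exports lactate, stood at 225, 263, 243 and 213 CPM in set 1 KO and 134 and 121 in WT. The set 2 samples held 298, 251, 305 and 254 CPM in KO and 246 and 203 in WT. KO samples lay above WT in both sets, and the rise was called over both sets (0.55, SE 0.12, edgeR adjusted p = 0.00165) and in set 1 (0.89, adjusted p = 0.00182), with 0.32 in set 2 (adjusted p = 0.103). Pdk1 (ENSMUSG00000006494, chromosome 2, 71873224 to 71903858, plus strand), a kinase that shuts pyruvate dehydrogenase, stood at 217, 204, 188 and 191 CPM in set 1 KO and 284 and 269.6 in WT. In set 2 it stood at 212, 258, 216 and 252 CPM in KO and 251 and 276 in WT. Set 2 overlapped, and the pooled call of Pdk1 (-0.32, SE 0.10, edgeR adjusted p = 0.0253) was lost without 1a, 1b, 1e, 2b or 2e (adjusted p = 0.0526 to 0.0959). The related kinase Pdk3 had 0.23 (adjusted p = 0.212).

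Of the 2 HIF alpha subunits, Epas1 fell and Hif1a did not pass the test. Epas1 (ENSMUSG00000024140, chromosome 17, 86753700 to 86833410, plus strand), which encodes the alpha subunit of the second HIF, stood at 81.9, 76.9, 93.0 and 99.7 CPM in set 1 KO samples and 185 and 177 in WT. In set 2 it stood at 83.0, 89.5, 79.1 and 76.3 CPM in KO samples and 117 and 136 in WT. KO samples lay below WT in both sets, with log2 fold changes of -1.03 (SE 0.17, edgeR adjusted p = 0.000682) and -0.62 (SE 0.11, adjusted p = 0.00167), though set 2 lost the call without 2b (0.118). Hif1a (ENSMUSG00000021109, chromosome 12, 73901375 to 73947530, plus strand) stood at 145, 163, 137 and 159 CPM in set 1 KO and 146 and 119 in WT. Its levels in set 2 were 90.0, 112, 103 and 104 CPM in KO and 120.5 and 114 in WT. It had a pooled log2 value of -0.03 (SE 0.11, edgeR adjusted p = 0.890).

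Over both sets the prolyl hydroxylases moved in opposite directions, Egln3 falling (-0.95, SE 0.17, edgeR adjusted p = 0.000502) and Egln1 rising. Egln3 (ENSMUSG00000035105, chromosome 12, 54178981 to 54203860, minus strand), itself a HIF target, stood at 32.1, 34, 22.2 and 31.6 CPM in set 1 KO samples and 86.1 and 93.9 in WT. Set 2 gave 48.3, 43.6, 55.6 and 48.9 CPM in KO and 81.4 and 57.6 in WT. The genotypes did not overlap in either set, and the log2 fold change was -1.58 in set 1 (SE 0.20, edgeR adjusted p = 7.74e-05) and -0.46 in set 2 (SE 0.15, adjusted p = 0.0636). Of 33 members tested, Egln3 alone had a KO effect that differed between the sets, by 1.10 (set 2 minus set 1, SE 0.26, edgeR adjusted p = 0.0392), against 0.828% of all 11950 genes. That difference was lost without any 1 of 1a, 1b, 1c, 1e, 2b, 2c, 2d or 2e (adjusted p = 0.0542 to 0.328) and with every library as its own sample (0.357). Egln1 (ENSMUSG00000031987, chromosome 8, 124908587 to 124949324, minus strand), the main oxygen sensor of most cells, stood at 61.9, 46.4, 51.8 and 65.7 CPM in set 1 KO and 36.8 and 43.9 in WT. The set 2 samples held 67.5, 57.5, 56.7 and 42.0 CPM in KO and 36.5 and 35.8 in WT. Every KO sample exceeded the WT samples of its set, and the pooled rise was 0.57 (SE 0.14, edgeR adjusted p = 0.00591), with 0.49 in set 1 (adjusted p = 0.184) and 0.64 in set 2 (adjusted p = 0.0175, lost without 2a, 2b, 2d or 2e at 0.0574 to 0.256, and lost with every library as its own sample at 0.110).

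Among the other hypoxia targets, the collagen prolyl hydroxylase subunits P4ha1 and P4ha2 rose while Vegfa, Ndrg1, Bnip3 and Higd1a did not pass. P4ha2 (ENSMUSG00000018906, chromosome 11, 54100095 to 54131665, plus strand) stood at 52.0, 80.4, 70.7 and 77.7 CPM in set 1 KO samples and 31.8 and 25.8 in WT. In set 2 it stood at 67.9, 71.5, 78.0 and 46.6 CPM in KO and 41.3 and 40.3 in WT. P4ha1 (ENSMUSG00000019916, chromosome 10, 59323296 to 59373304, plus strand) stood at 92.9, 67.2, 83.9 and 76.4 CPM in set 1 KO samples and 36.8 and 50.8 in WT. Its levels in set 2 were 72.3, 65.3, 79.1 and 62.5 CPM in KO and 50.1 and 43.4 in WT. Neither gene overlapped between genotypes in either set, and the pooled rises were 0.91 for P4ha2 (SE 0.15, edgeR adjusted p = 0.000178) and 0.69 for P4ha1 (SE 0.13, adjusted p = 0.000483). Within single sets, P4ha1 lost its call without 1a, 1c or 1e in set 1 (edgeR adjusted p = 0.0512 to 0.209) and without 2b or 2e in set 2 (0.292 and 0.0548), and P4ha2 without 2a, 2b or 2e in set 2 (0.0620 to 0.206). Fibroblasts make collagen and its hydroxylases, and the feeder markers moved with these genes: 7 of 19 tested rose over both sets and none fell, with the sums given above. The part of feeder cells in the rises was not tested. Ankrd37 (ENSMUSG00000050914, chromosome 8, 45996902 to 46005707, minus strand), a small ankyrin-repeat protein, stood at 4.42, 4.16, 4.94 and 5.05 CPM in set 1 KO and 11.7 and 12.1 in WT. Set 2 gave 10.3, 7.98, 7.18 and 13.9 CPM in KO and 7.11 and 7.81 in WT. It fell in set 1 (-1.33, SE 0.42, edgeR adjusted p = 0.0478), a call lost without any 1 of the 6 samples (0.0651 to 0.263), and had 0.35 in set 2 (adjusted p = 0.516). Vegfa, the endothelial growth factor, ranged over 33.3 to 37.2 CPM in set 1 KO and 50.8 to 53.5 in WT, which did not overlap, and had -0.56 in set 1 and 0.24 in set 2 (edgeR adjusted p = 0.0910 and 0.490).

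Untreated set 2 libraries fell into 2 sub-batches on the first principal axis of their residual profiles, taken without the glycolysis and hypoxia lists (33.7% of the variance), and several hypoxia genes stood at different levels in them. The titles do not name the sub-batches: A held the first library of codes 2a, 2b, 2d and 2e with 2f, and B the second library of the same codes with 2c. The widest gap on this axis was 18.4 units wide, against a span of 19.4 within A and 14.1 within B: the division is not sharp. Summing weighs libraries by depth. WT sample 2b held 7941952 counts from A and 2275088 from B, and 2a held 1475892 and 1770213. KO samples 2d and 2e held more from B (3322240 and 4106207) than from A (2101566 and 1423772). The main fits that use untreated set 2 samples left sub-batch out, so genotype and sub-batch are partly mixed in them. Egln3 stood at 46.5, 42.1 and 48.5 CPM in the KO libraries of A against 39.3 and 47.3 in its WT libraries, and at 48.1, 41.1 and 59.1 CPM in the KO libraries of B against 115 and 90.9 in its WT libraries. The WT libraries of B were thus the high ones. Egln3 fell within B (-1.04, edgeR adjusted p = 2.57e-08) and had 0.07 within A (adjusted p = 0.891). Aldoc stood at 28.3, 22.5 and 19.4 CPM in the KO libraries of A against 28.1 and 26.6 in its WT libraries, and at 39.6, 41.4 and 33.2 CPM in the KO libraries of B against 55.2 and 58.6 in its WT libraries. Vegfa stood at 26.8, 26.1 and 23.9 CPM in the KO libraries of A against 19.0 and 27.2 in its WT libraries, and at 44.8, 43.2 and 40.9 CPM in the KO libraries of B against 39.4 and 43.6 in its WT libraries, so that both genotypes were higher in B. Pfkp kept its genotypes apart in both, with 70.4, 78.4 and 58.7 CPM in the KO libraries of A against 139.8 and 116 in its WT libraries, and 64.9, 60.5 and 65.4 CPM in the KO libraries of B against 175 and 142 in its WT libraries. Within A, 2 of 30 tested members were called (Pfkp and Ldhb), both lower, against 4.06% of all genes, 2.45% higher and 1.61% lower. Within B, 4 of 32 were higher and 9 lower in KO, against 13.7% of all genes called, 7.27% higher and 6.4% lower. With libraries kept separate and sub-batch as a covariate, 3 of 32 were higher and 5 lower, against 14.0% of all genes called, 8.11% higher and 5.92% lower. Egln1 stood at 42.2, 28.3 and 41.7 CPM in the KO libraries of A against 33.7 and 34.4 in its WT libraries, which overlapped, and at 67.1, 66.2 and 65.1 CPM in the KO libraries of B against 38.2 and 38.9 in its WT libraries, which did not. Its log2 fold change was 0.17 within A (edgeR adjusted p = 0.729) and 0.78 within B (adjusted p = 0.000246). P4ha1 and P4ha2 were not called within A (0.54 and 0.71, edgeR adjusted p = 0.0967 and 0.0569) and were called within B (0.42 and 0.60). Epas1 was called within neither A (-0.53, edgeR adjusted p = 0.0981) nor B (-0.34, adjusted p = 0.0807) but was called with the covariate (-0.44, adjusted p = 0.00671). Samples 2c and 2f hold 1 library each, 2c of B and 2f of A, and lie at opposite ends for Slc2a3 (679 to 1260.0 CPM over the 4 samples, highest in 2c and lowest in 2f), Aldoc and Vegfa among the set 2 KO samples given here. Slc16a3 libraries overlapped between genotypes in A (193 to 352 CPM in KO, 174 to 217 in WT) and in B (283 to 297, 267 to 295). Ldhb libraries overlapped in B (64.7 to 85.5 CPM in KO, 83.4 to 112 in WT) but not in A (63.9 to 71.4, 94.2 to 112). Whether KO effects differ between the sub-batches was not tested.

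**Figure D3:**
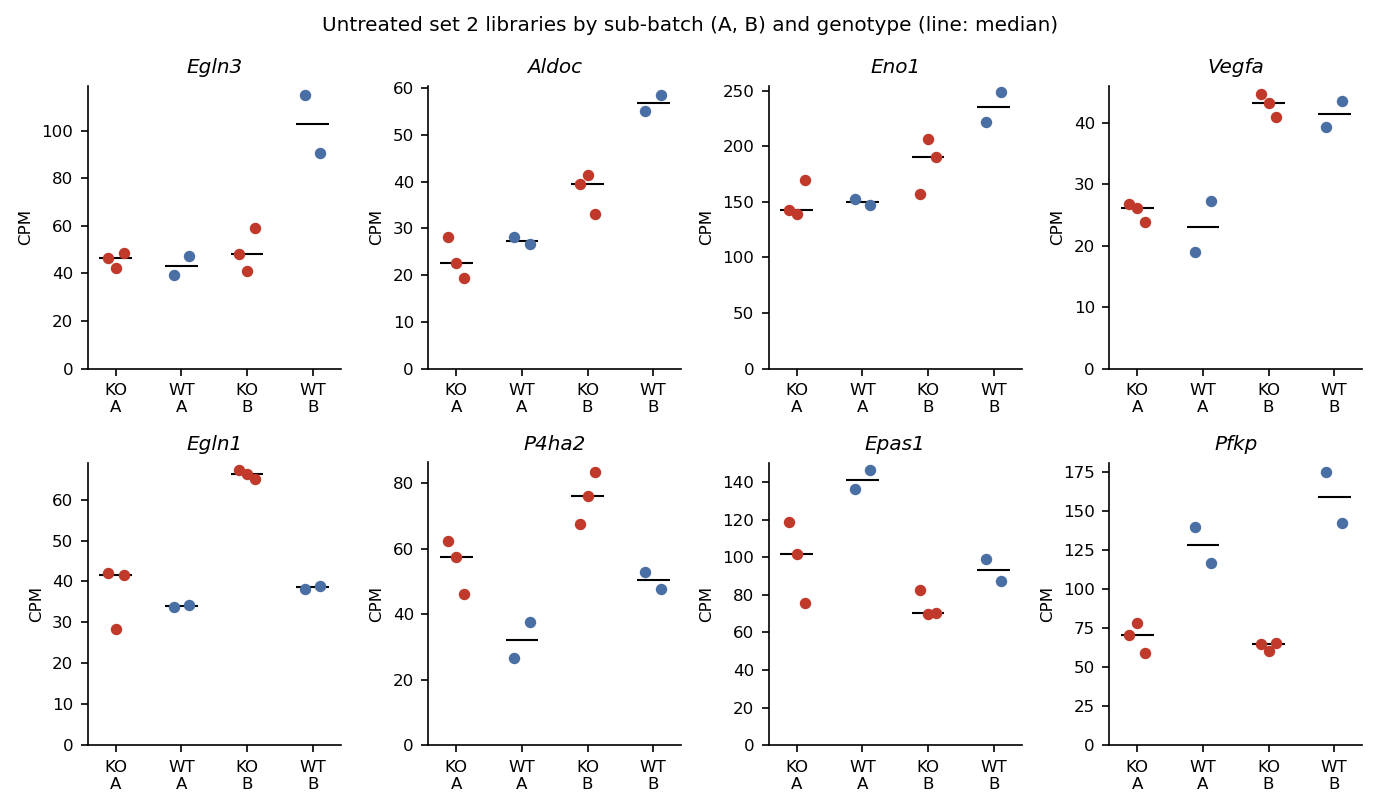
Each point is 1 untreated set 2 library, in CPM scaled by TMM, by sub-batch (A or B) and genotype, KO in red and WT in blue, with a line at the median. Egln3, Aldoc and Eno1 are highest in the WT libraries of B, Vegfa is higher in B in both genotypes, and Pfkp is lower in KO in both sub-batches.

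Comparing the second with the first library of the 4 codes with 2 libraries each, both genotypes included, 11 of the 28 members with a mean of at least 10 CPM (39.3%) were higher in the second library of all 4 codes, against 16.3% of all 8537 such genes. Another 2 (7.14%) were lower in all 4, again against 16.3%. The 11 were Pgk1, Eno1, Slc2a3, Tpi1, Ldha, Aldoa, P4ha1, Egln1, P4ha2, Aldoc and Vegfa, and the 2 were Hif1a and Epas1, the HIF alpha subunits. Both libraries of a code share genotype and line.

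Of the other genes of these pathways, 13 of 74 tested were called between untreated KO and WT cells over both sets (17.6%), near the 19.1% of all genes. Of 33 other genes of glycolysis and pyruvate handling, 15 were tested over both sets and only Pfkfb3, which makes the activator of phosphofructokinase, was called. It stood at 32.1, 52.0, 32.9 and 28.4 CPM in set 1 KO and 15.0 and 12.9 in WT. The set 2 samples held 72.3, 68.3, 77.8 and 42.3 CPM in KO and 43.0 and 36.3 in WT (0.91, SE 0.18, edgeR adjusted p = 0.00115). By edgeR, 0 of 15 HIF pathway regulators passed (0 also at an unadjusted p under 0.05), and 1 of 8 tested pentose phosphate genes rose, Rpe, an epimerase (0.52, adjusted p = 0.0104). Of 36 tested other HIF targets, 6 rose and 5 fell over both sets (30.6% called, against 19.1% of all genes). In set 1 alone 8 of 32 were called (25.0%, against 12.3% of all genes), and in set 2 alone 2 of 36 (5.56%, against 9.19%). Over both sets, the 4 with the smallest adjusted p were the histone demethylase Kdm3a (-0.63), the growth inhibitor Ddit4 (0.93), transferrin, Trf (-1.39), and the collagen cross-linking oxidase Loxl2 (0.75), at edgeR adjusted p = 0.00191 to 0.00767. In set 1 alone, Lox (2.49), strongly expressed by fibroblasts, rose and the transferrin receptor Tfrc (-0.86) fell (edgeR adjusted p = 0.00223 and 0.00130). In set 2, Gbe1, which branches glycogen, rose (0.83, adjusted p = 0.0325) and Trf fell (-1.40, adjusted p = 0.00952). The KO effect on Tfrc differed between the sets (set 2 minus set 1 0.86, edgeR adjusted p = 0.0280).

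RA changed most of the 34 genes, and most of them fell. After 4 d, the glucose transporters Slc2a1 and Slc2a3, the phosphofructokinases Pfkl and Pfkp, the aldolases, Eno1, Pkm, both lactate dehydrogenases and the lactate exporter fell in both KO and WT cells, and Pdk1 fell most. Pdk3, Vegfa, Eno2, Hif1a, P4ha1 and P4ha2 rose in both genotypes. By edgeR's quasi-likelihood test, 7 of 34 rose and 21 fell in KO cells, against 55.1% of all 14659 genes called, 28.3% higher and 26.8% lower. In WT cells, 7 rose and 20 fell, against 47.3% of all genes called, 24.8% higher and 22.5% lower. The median log2 fold change was -1.15 for these genes and -0.01 for all genes in KO, and -1.29 and -0.03 in WT. All 12 ESC markers fell in both genotypes. The WT value rests on a single RA sample, whose spread was taken from the other set 2 groups, and comparisons that share untreated or RA samples are not independent of each other.

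**Figure D4:**
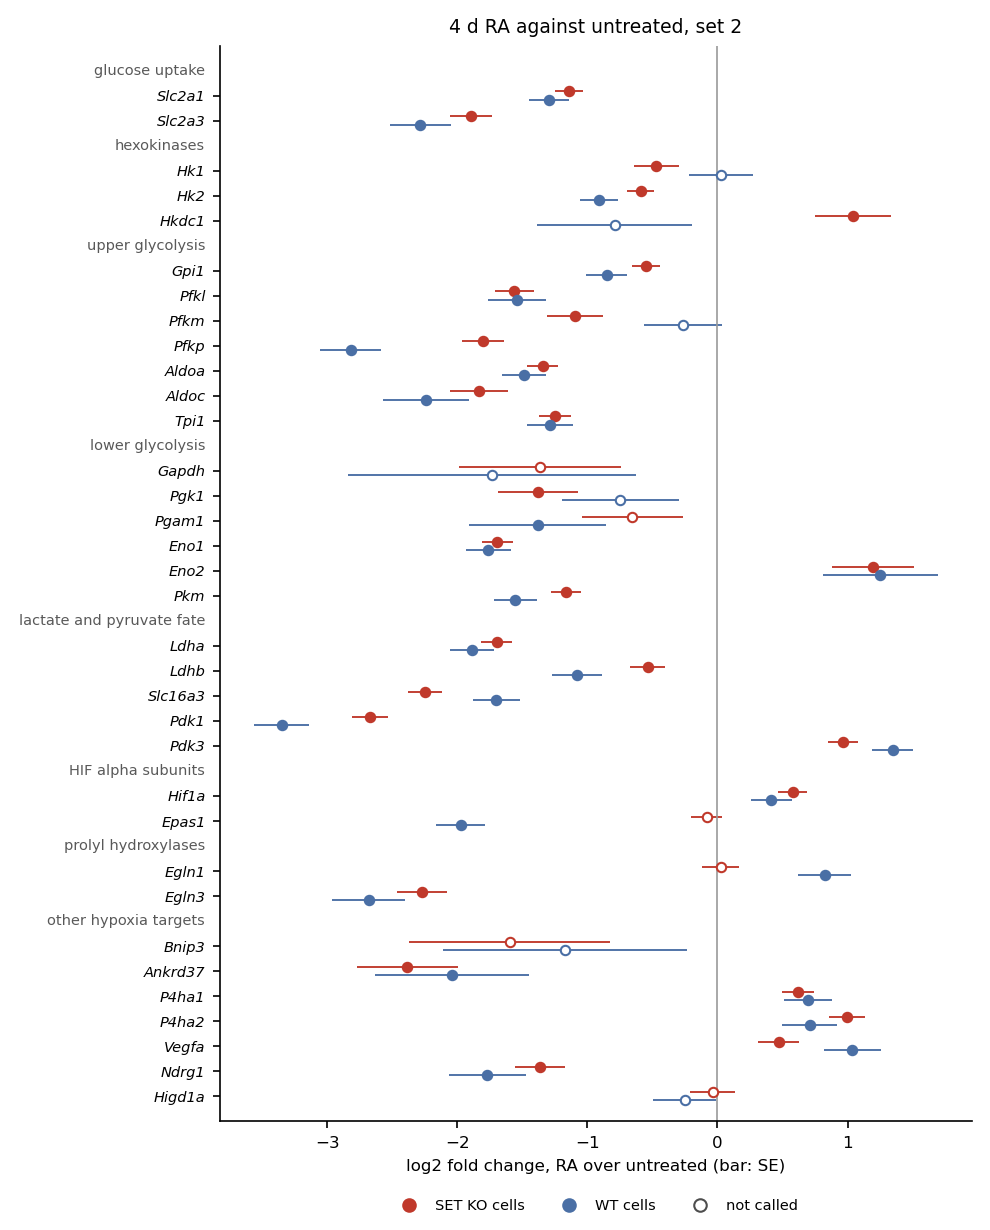
Log2 fold changes of 4 d RA over untreated with SE for the 34 genes grouped by role, in SET KO cells (red) and WT cells (blue) of set 2; filled points passed an edgeR adjusted p of 0.05. Most points lie left of zero, with Pdk1 farthest left in both genotypes, and Epas1 is the gene where the 2 genotypes are farthest apart among those called in either.

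Both glucose transporters fell. Slc2a3 (ENSMUSG00000003153, chromosome 6, 122727809 to 122801640, minus strand), the high-affinity transporter, stood at 283 and 274 CPM in RA-treated KO samples, against 1260.0, 1028, 1114 and 679 in untreated KO. In WT it stood at 178 CPM after RA, against 891 and 819 in untreated WT. Slc2a1, the widely expressed transporter, stood at 118 and 135 CPM in RA-treated KO, against 275, 264, 278 and 271 in untreated KO. WT cells held 103 CPM after RA, against 258 and 244 in untreated WT. All RA samples lay below all untreated samples for both genes, with log2 fold changes of -1.90 in KO and -2.28 in WT for Slc2a3 and -1.14 in KO and -1.30 in WT for Slc2a1 (largest edgeR adjusted p = 5.06e-07). The hexokinase Hk2 stood at 353 and 425 CPM in RA-treated KO, against 581, 599, 577 and 531 in untreated KO. The WT level was 332 CPM after RA, against 637 and 597 in untreated WT. The log2 fold changes of Hk2 were -0.59 in KO and -0.91 in WT. Hk1, the housekeeping hexokinase, ranged over 20.3 to 26.1 CPM in RA-treated KO against 29.1 to 32.9 in untreated KO, with 24.9 in RA-treated WT against 23.6 to 24.5 in untreated WT. It was called in KO only (-0.47, edgeR adjusted p = 0.0214, or 0.286 without 2h), while in WT it had 0.03 (adjusted p = 0.935).

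In upper glycolysis, all 7 genes fell in KO and 6 fell in WT, Pfkm being the exception: it stood at 10.2 and 9.70 CPM in RA-treated KO against 17.1 to 24.7 in untreated KO and at 13.6 in RA-treated WT against 17.1 and 15.6 in untreated WT, with -1.10 in KO (edgeR adjusted p = 0.0001) and -0.27 in WT (adjusted p = 0.490). Pfkp stood at 21.3 and 16.7 CPM in RA-treated KO and 20.2 in RA-treated WT, far below the untreated samples of either genotype. The log2 fold change was -1.80 (SE 0.16) in KO and -2.82 (SE 0.23) in WT, and their difference of 1.02 (KO minus WT) did not pass (edgeR adjusted p = 0.0872). Pfkl stood at 40.1 and 36.5 CPM in RA-treated KO, against 120.3, 110.4, 122 and 88.2 in untreated KO. WT cells had 33.8 CPM after RA, against 112 and 84.7 in untreated WT. Aldoa stood at 208 and 196 CPM in RA-treated KO, against 593, 444, 489 and 481 in untreated KO. In WT it stood at 184 CPM after RA, against 554 and 465 in untreated WT. Neither gene overlapped between RA-treated and untreated samples, with log2 fold changes of -1.56 in KO and -1.54 in WT for Pfkl and -1.35 in KO and -1.49 in WT for Aldoa. Aldoc stood at 9.97 and 8.01 CPM in RA-treated KO and 8.12 in RA-treated WT, below every untreated sample (-1.83 in KO and -2.24 in WT). Tpi1, triose phosphate isomerase, stood at 90.7 and 78.0 CPM in RA-treated KO, against 212, 204, 211 and 158 in untreated KO. WT cells held 78.0 CPM after RA, against 193 and 185 in untreated WT. Gpi1, which turns glucose 6-phosphate into fructose 6-phosphate, stood at 155 and 134 CPM in RA-treated KO, against 184, 212, 209 and 222 in untreated KO. The WT level was 146 CPM after RA, against 273 and 248 in untreated WT. Tpi1 fell in both genotypes (-1.25 in KO and -1.29 in WT), and Gpi1 had the smallest of the 7 falls in KO (-0.55, edgeR adjusted p = 0.000122), with -0.85 in WT.

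In lower glycolysis, the enolases moved in opposite directions. Eno1, the enolase of most cells, stood at 56.6 and 53.3 CPM in RA-treated KO, against 158, 184, 180.2 and 171 in untreated KO. WT cells had 54.2 CPM after RA, against 192 and 172 in untreated WT. Eno2, the neuronal enolase, stood at 8.57 and 8.43 CPM in RA-treated KO, against 4.43, 4.27, 3.68 and 1.98 in untreated KO. In WT it stood at 8.90 CPM after RA, against 3.55 and 3.75 in untreated WT. Every RA sample was lower for Eno1 and higher for Eno2 than every untreated sample, with -1.69 in KO and -1.76 in WT for Eno1 and 1.20 in KO and 1.25 in WT for Eno2 (edgeR adjusted p = 0.00215 and 0.0209). Eno2 in WT lost its call without 2b (adjusted p = 0.0900), just missed the threshold without 2a, and lost the call against untreated libraries of sub-batch B alone (0.176). Pkm, pyruvate kinase, stood at 197 and 188 CPM in RA-treated KO, against 382, 487, 444 and 370.5 in untreated KO. WT cells held 141 CPM after RA, against 403 and 415 in untreated WT (-1.16 in KO and -1.55 in WT). Pgk1, which makes ATP from bisphosphoglycerate, ranged over 6.18 to 8.64 CPM in RA-treated samples and 9.25 to 26.7 in untreated ones, and the mutase Pgam1 over 2.39 to 2.95 and 3.69 to 7.75 CPM. These genes were each called in 1 genotype, Pgk1 in KO (-1.38, edgeR adjusted p = 0.000654) and Pgam1 in WT (-1.38, adjusted p = 0.0320, or 0.0690 without 2a and 0.0760 without 2b), and Gapdh in neither.

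At the pyruvate fork the Pdk genes moved apart. Pdk1 stood at 42.1 and 33.1 CPM in RA-treated KO and 26.2 in RA-treated WT, against 212 to 258 in untreated KO and 251 and 276 in untreated WT. This was the largest fall of the 34 genes in both genotypes, at -2.67 in KO (SE 0.14, edgeR adjusted p = 3.68e-15) and -3.35 in WT (SE 0.21, adjusted p = 4.38e-13). Pdk3 stood at 132 and 118 CPM in RA-treated KO, against 68.3, 64.0, 62.8 and 55.5 in untreated KO. The WT level was 148 CPM after RA, against 56.5 and 58.0 in untreated WT. Pdk3 thus rose by 0.96 in KO and 1.35 in WT on the log2 scale. Slc16a3 stood at 58.6 and 60.7 CPM in RA-treated KO and 69.7 in RA-treated WT, below every untreated sample (-2.25 in KO and -1.70 in WT). Ldha stood at 144 and 132 CPM in RA-treated KO, against 481, 455, 462 and 356 in untreated KO. WT cells had 114 CPM after RA, against 436 and 401 in untreated WT (-1.70 in KO and -1.89 in WT). Ldhb stood at 43.9 and 57.6 CPM in RA-treated KO and 50.8 in RA-treated WT. The log2 fold change of Ldhb was -0.53 in KO (edgeR adjusted p = 0.00137, or 0.0982 without 2h) and -1.08 in WT (adjusted p = 3.83e-05).

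Among the HIF genes, Hif1a rose in both genotypes, and the RA effect on Epas1 differed between KO and WT. Hif1a stood at 146 and 169 CPM in RA-treated KO and 158 in RA-treated WT, with 0.58 in KO (edgeR adjusted p = 7.43e-05) and 0.41 in WT (adjusted p = 0.0328, or 0.0550 without 2a and 0.162 without 2b). Epas1 stood at 78.2 and 80.5 CPM in RA-treated KO, against 76.3 to 89.5 in untreated KO. In WT it stood at 32.7 CPM after RA, against 117 and 136 in untreated WT. The RA effect was -0.08 in KO (SE 0.12, edgeR adjusted p = 0.568) and -1.97 in WT (SE 0.19, adjusted p = 1.54e-09). Their difference of 1.89 (KO minus WT, SE 0.22) passed its own test (edgeR adjusted p = 4.82e-05), which 1.09% of all genes and no other member did. It rests on 2g, the only RA-treated WT sample, which no fit could leave out. It held in the 8 fits that each left out 1 of the other samples. It also held with untreated libraries of sub-batch A (log2 difference 1.75) or B (log2 difference 1.62). With libraries kept separate, the log2 difference was 1.74 and the call was lost (edgeR adjusted p = 0.221). Epas1 was thus lower in KO than in WT in untreated cells and higher in KO after RA.

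Egln3 stood at 10.6 and 10.1 CPM in RA-treated KO and 10.7 in RA-treated WT, below every untreated sample (-2.27 in KO and -2.68 in WT), and KO over WT after RA was -0.07 (SE 0.32, edgeR adjusted p = 0.993). Egln1 stood at 52.4 and 63.7 CPM in RA-treated KO and 64.7 in RA-treated WT. It rose in WT (0.82, SE 0.20, edgeR adjusted p = 0.00140), into the range of untreated KO cells, and had 0.02 in KO (SE 0.14), and the difference of -0.80 between genotypes did not pass (adjusted p = 0.136). Ankrd37 stood at 1.99 and 1.69 CPM in RA-treated KO and 1.83 in RA-treated WT, with -2.38 in KO and -2.04 in WT. Ndrg1, a stress-induced gene of differentiating cells, stood at 10.6 and 13.5 CPM in RA-treated KO, against 29.5, 31.9, 31.8 and 26.8 in untreated KO. WT cells held 9.69 CPM after RA, against 35.5 and 30.7 in untreated WT (-1.36 in KO and -1.77 in WT). Bnip3, a mitophagy receptor, and Higd1a, a mitochondrial protein, were called in neither genotype. Bnip3 ranged over 0.422 to 1.05 CPM in RA-treated samples of both genotypes and 0.992 to 3.23 in untreated ones, and Higd1a over 28.3 to 34.2 and 24.8 to 38.8 CPM.

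The hypoxia targets that rose with RA in both genotypes were Vegfa, P4ha1 and P4ha2. Vegfa stood at 54.0 and 47.9 CPM in RA-treated KO, against 45.0, 37.3, 37.7 and 24.1 in untreated KO. The WT level was 64.2 CPM after RA, against 30.4 and 31.3 in untreated WT. The log2 fold change of Vegfa was 0.47 in KO (edgeR adjusted p = 0.0124, or 0.0591 without 2d and 0.147 without 2h, and 0.29 with adjusted p = 0.198 against untreated KO1 alone) and 1.04 in WT (adjusted p = 0.000281). In KO the call was lost against the libraries of sub-batch B, where untreated Vegfa was higher (edgeR adjusted p = 0.18). P4ha1 stood at 109 and 111 CPM in RA-treated KO and 75.7 in RA-treated WT, and P4ha2 at 135 and 137 in RA-treated KO and 67.3 in RA-treated WT. P4ha1 rose by 0.62 in KO and 0.70 in WT, and P4ha2 by 1.00 in KO and 0.71 in WT. Both WT calls were lost without 2b (edgeR adjusted p = 0.0512 and 0.0508) and against sub-batch B (0.0729 and 0.0603). Most feeder fibroblast markers rose over the same contrast. Of 23 tested, 20 rose and 1 fell in KO, and 18 rose and 0 fell in WT. The part of feeder cells was not tested.

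After RA, KO cells differed from WT in 3 of the 34 genes, all higher, against 0.396% of all genes called, 0.287% higher and 0.109% lower. Besides Epas1 (1.26, SE 0.19, edgeR adjusted p = 0.000929) these were P4ha2 (1.00, SE 0.21, adjusted p = 0.0199) and Hkdc1 (2.35, SE 0.53, adjusted p = 0.0418). Hkdc1 (ENSMUSG00000020080, chromosome 10, 62383137 to 62422491, minus strand), a hexokinase-like gene of low counts, stood at 14.4 and 10.1 CPM in RA-treated KO and 2.36 in RA-treated WT, against 7.38, 7.24, 3.68 and 5.95 in untreated KO and 5.49 and 3.33 in untreated WT. Its rise with RA was called in KO (1.04, edgeR adjusted p = 0.00349, or 0.124 without 2h, and 0.71 with adjusted p = 0.0857 against untreated KO1 alone), with -0.79 in WT (adjusted p = 0.286), and the difference did not pass (0.224). The Hkdc1 call after RA was lost without 2c, 2d, 2h or 2i (edgeR adjusted p = 0.0571 to 0.354) and that of P4ha2 without 2h or 2i (0.127 and 0.192), while Epas1 held in the 8 such fits, none of which could leave out 2g, the whole WT arm; with every library as its own sample, none of the 3 was called. The feeder markers summed to 5479 to 6328 CPM in RA-treated KO and 5765 in RA-treated WT, of which Acta2, the smooth muscle actin, made up 72.8% to 73.7% in KO and 75.2% in WT. The 25 others summed to 1489 to 1665 CPM in KO and 1429 in WT, and by edgeR 0 of 23 tested were called (5 at an unadjusted p under 0.05). Of the other pathway genes, 0 of 21 tested glycolysis and pyruvate genes were called after RA (1 at an unadjusted p under 0.05), 0 of 36 other HIF targets (5), and 0 of 15 regulators and 0 of 8 pentose phosphate genes (0 each).

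**Figure D5:**
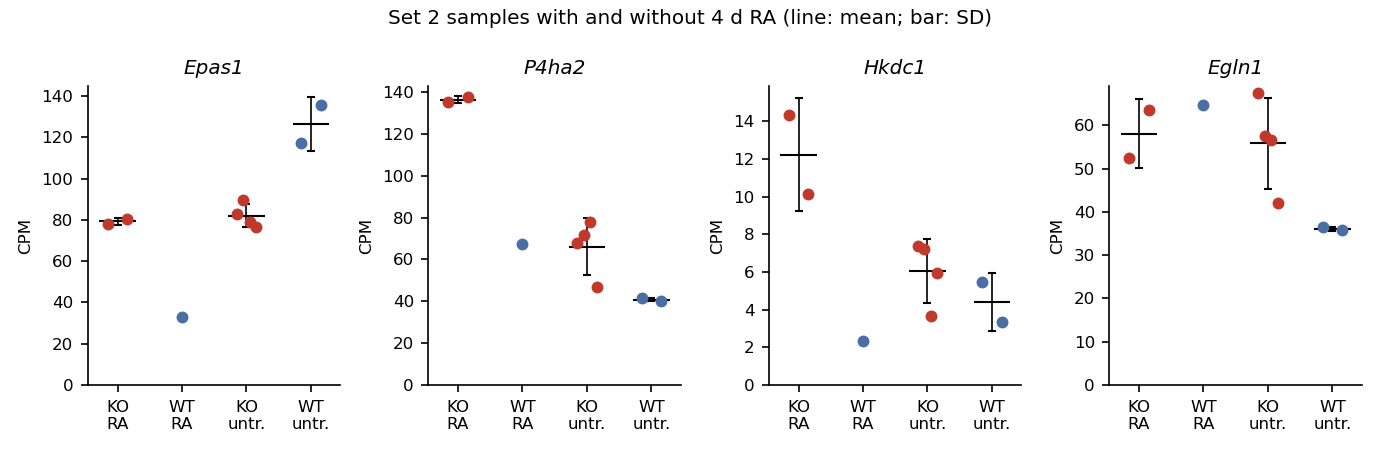
CPM scaled by TMM of 4 genes in each set 2 sample, after 4 d RA and untreated, SET KO in red and WT in blue, with lines at the mean and bars of SD where a group has more than 1 sample. After RA the KO points of Epas1, P4ha2 and Hkdc1 lie above the single WT point, while untreated KO points of Epas1 lie below WT.

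Of the other genes of these pathways, 46 of 80 tested were called with RA in KO (57.5%, against 55.1% of all genes) and 41 in WT (51.2%, against 47.3%), shares near those of all genes. Of 21 tested other glycolysis and pyruvate genes, 2 rose and 6 fell in KO and 3 rose and 4 fell in WT, led by falls of Tigar, Slc16a1 (the general monocarboxylate transporter) and the pyruvate dehydrogenase subunit Pdhb and a rise of Pfkfb3 (-1.03, -0.94, -0.69 and 0.88 in KO; -1.06, -1.14, -0.82 and 1.06 in WT). Of 8 tested pentose phosphate genes, 2 rose and 5 fell in KO and 1 rose and 5 fell in WT. The transaldolase Taldo1 (-0.83 in KO, -0.78 in WT), the transketolase Tkt (-0.88 and -0.84) and Rpe (-1.0 and -0.58) fell in both, as did Pgd (-0.58 and -0.41), and H6pd rose (0.88 and 1.64). Of 15 HIF regulators, 5 rose and 3 fell in KO and 4 rose and 2 fell in WT. The HIF partner Arnt2 (1.71 in KO, 1.88 in WT) and Vhl, which recognises hydroxylated HIF (1.02 and 1.25), rose in both. Os9 also rose (0.85 and 1.16), and Arnt (-0.38 and -0.59) and the ubiquitin ligase scaffold Cul2 (-1.02 and -0.50) fell, while Siah2 was called in KO only (1.13; 0.12 in WT, edgeR adjusted p = 0.804). Of 36 other HIF targets, 9 rose and 14 fell in KO and 7 rose and 15 fell in WT, the leading ones in both being the collagen-linking Loxl2 (2.30 and 2.68) and Lox (2.87 and 2.91), which rose, and the adenylate kinase Ak4 (-1.50 and -2.21) and Tfrc (-1.43 and -1.41), which fell (largest edgeR adjusted p = 1.73e-07).

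In KH2 cells, 24 h of Dox moved few of the genes. Gpi1 and Aldoc, both of upper glycolysis, fell, 2 of 33 tested, against 1.8% of all 12723 genes called (0.896% higher and 0.904% lower), and the median was -0.16 for these genes and 0.00 for all genes. Gpi1 (ENSMUSG00000036427, chromosome 7, 34201330 to 34230336, minus strand) stood at 484 and 539.6 CPM with Dox and 753 and 803 without. Aldoc stood at 151 and 153 CPM with Dox and 197 and 213 without. Samples with Dox lay below those without for both genes, with log2 fold changes of -0.60 for Gpi1 (SE 0.11, edgeR adjusted p = 0.00288) and -0.43 for Aldoc (SE 0.11, adjusted p = 0.0478). The Gpi1 call was lost without the second sample without Dox (0.221), and that of Aldoc without any 1 of the 4 samples (edgeR adjusted p = 0.0961 to 0.444). Epas1, Pfkp, P4ha2 and Egln3, which differed between KO and WT, had -0.34, -0.22, -0.46 and -0.16 with Dox (smallest edgeR adjusted p = 0.164), and the remaining members ran from -0.76 for Pgam1 to 0.50 for Pgk1. Among other HIF targets 5 of 36 tested fell and none rose, the leading ones being adrenomedullin, Adm (-0.85), Mif (-0.52), Ddit4 (-0.43) and Gbe1 (-0.97), at edgeR adjusted p = 0.0255 to 0.0362, and among HIF regulators the hydroxylase Egln2 rose (0.53, adjusted p = 0.0484). By edgeR, 0 of 21 other glycolysis and pyruvate genes (5 at an unadjusted p under 0.05) and 0 of 8 pentose phosphate genes (0) were called. The feeder fibroblast markers moved with Dox too: they summed to 651 to 798 CPM with Dox and 1115 to 1150.3 without, and 6 of 23 tested fell; their part in these falls was not tested.

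Levels of several genes also stood apart between lines and sets, and line, set and library preparation cannot be told apart in this. Epas1 stood at 14.3 to 23.4 CPM in KH2 cells, against 117 to 185 in untreated R1 WT cells of both sets. Hk1 stood at 161 to 180.2 CPM in KH2 cells, against 23.6 to 31.0 in R1 WT cells, and Ndrg1 at 132 to 170.3, against 21.7 to 35.5. Slc2a1 stood at 244 to 278 CPM in untreated set 2, against 756 to 1040.4 in set 1, and Ldha at 356 to 481, against 881 to 1359.9. For these genes the groups of samples did not overlap, and the differences are given as values without a test.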

How the data were processed

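Deposited values were raw counts per gene from 23 libraries, which the authors made with featureCounts 1.6.0 and, per the file headers, the gene models of Ensembl release 97 (GRCm38); STAR 2.5.4b and Subread 2.0.0 are named in the submitters' processing notes. QuantSeq 3′ libraries came from 500 ng RNA, per the labels' protocols. The header's command shows no strand, multi-mapping or multi-gene option. Libraries with the same title code (4 codes of set 2) were summed, which gave 19 samples, and no column of values was left unused. The deeper library of a code thus weighs more in its sample. Symbols were matched for 55394 of 55573 identifiers, through the GRCm38 annotation.

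Counts were tested with edgeR 4.0.16 (R 4.3.3; TMM, filterByExpr with a minimum count of 10 and a total of 15, robust quasi-likelihood fit, Benjamini-Hochberg adjustment over all genes tested, threshold 0.05) in 9 comparisons, each fitted on the groups it needs. The KO over WT fit over both sets has set as a covariate and a single KO term without line, so samples of the same line count as separate. RA in KO, and the difference of the RA effect, were taken against untreated KO1 and KO2 weighed equally. DESeq2 1.42.0 was an alternative. Simulated data with 200 changed genes were used to check the fits. Members and lists were chosen with earlier results of these data known. Members called in at least 2 comparisons, and the 4 largest called changes of each comparison, are given by sample; up to 4 called genes per pathway list and comparison are named, except an item that is not reported here. Depth limits precision. The floor of 3 counts covers counting error only, while each SE also reflects the spread among the samples at hand.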

Additional observations from a re-analysis of the deposited data

Results flagged for a closer look

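In 5 of 68 groups of 4 KO samples, 1 sample stood far from the others, and chance alone gives about 1 in 20 such groups. In set 1 these were Hk1 at 27.1 CPM in 1f, Gpi1 at 263 CPM in 1d, Bnip3 at 15.5 CPM in 1c and Higd1a at 123 CPM in 1d. In set 2, Tpi1 stood at 158 CPM in 2f. None of these genes was called between untreated KO and WT cells in either set or over both.

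Effects that differed between groups by their own edgeR test were that of KO on Egln3, by 1.10 on the log2 scale (set 2 minus set 1, adjusted p = 0.0392), and that of RA on Epas1, by 1.89 (KO minus WT, adjusted p = 4.82e-05). The Egln3 call held in 4 of the 12 fits that each left out 1 sample. The Epas1 difference rests on 2g, the only RA-treated WT sample. Both calls were lost with libraries kept separate.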

How the results depend on the processing

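Of 1239 recomputed member values of called members, 1123 kept direction and call, 116 kept direction and lost the call, and 0 changed sign. Counts of calls that moved were the following. Over both sets, 1426 genes were called with counts summed per line and set, where Aldoc (log2 -0.70) and Pdk1 (-0.34) lost their calls. In set 2, 3 members and 759 genes were called with libraries kept separate, 2 and 434 within sub-batch A, and 13 members within sub-batch B. For the difference between sets, 171 genes were called without a low-count filter and 0 members with libraries kept separate. For KO against WT after RA, 94 genes were called without the filter, 0 members and 8 genes with libraries kept separate, and 164 or 160 genes with untreated libraries of sub-batch A or B. For the difference of the RA effect, 98 genes were called by DESeq2, 2 members and 284 genes without the filter, 0 and 2 with libraries kept separate, 2 and 336 with sub-batch A and 5 and 380 with sub-batch B. With Dox, 1 member and 127 genes were called by DESeq2. The sub-batch alternatives of the RA comparisons were chosen after seeing the data. The causes were not tested.

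Same-numbered samples correlated at -0.144 to 0.0457 in set 1, -0.267 to 0.225 in set 2 and 0.0355 in KH2 cells. In groups of 2 samples the deviations from the mean mirror each other. This check therefore cannot tell whether the numbers pair the samples. The replicate block gave 3 members and 454 genes in set 2 and 6 members and 724 genes with Dox. Without the block, the main fits gave 6 and 1165 in set 2 and 2 and 229 with Dox.

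Leaving out 1 sample at a time gave 8 to 10 members and 1553 to 2416 genes over both sets, 6 to 9 and 570 to 1388 in set 1, 2 to 12 and 195 to 2335 in set 2 (2 members without 2b, 3 without 2e, 12 without 2f), 0 to 2 and 22 to 127 for the difference between sets, 22 to 27 and 5558 to 7224 for RA in WT, 24 to 29 and 6191 to 7919 for RA in KO, 1 to 4 and 15 to 98 after RA (1 member without 2h or 2i), 1 to 2 and 27 to 388 for the difference of the RA effect, and 0 to 1 and 6 to 234 with Dox (0 without the second sample without Dox). RA in WT rests on 1 treated sample, assumed to vary like the other groups. Set 1 is the shallowest, and low genes such as Hkdc1 and Eno2 were not tested there.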
